A study of Mus musculus with 25 samples.

Results

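Mannose at 5% of the drinking water was given to mice on a steatohepatitis regimen either from the start (prevention) or late (therapy), and the livers of these 2 groups are compared here. Prevention means that mannose was present for all 12 weeks of the regimen, and therapy that it was present for the last 6 weeks only. The 6 liver libraries, 3 for each group, were taken by their labels from 25 in the series. All mice were male C57BL/6J, were 8 weeks old when the regimen began and 20 weeks old at the end, and carried no engineered allele. Every mouse of both groups was on the FAT-MASH regimen, a chow that held 41% sucrose, 21.1% fat and 1.25% cholesterol, drinking water with 23.1 g/l fructose and 18.9 g/l glucose, and 1 injection a week of carbon tetrachloride, a liver toxin that causes scarring. Mice on the same regimen without mannose (FAT-MASH, 3 libraries) served as the reference, and mice given 20% mannose for 12 weeks (20% prevention, 3 libraries) or for the last 6 weeks (20% therapy, 3 libraries) were used for the comparison of doses. Poly-A RNA of whole liver was sequenced, so each value is an average over all liver cells, and in such samples fewer cells of a type and less RNA per cell cannot be told apart. The labels call the libraries of a group biological replicates, and the sources used here give neither litters and cage numbers nor the hour of collection.

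Mannose is a hexose that enters cells through glucose transporters, is phosphorylated by hexokinase and is then either turned into fructose 6-phosphate for glycolysis by the isomerase MPI or into the mannosyl donors of protein glycosylation by the mutases PMM1 and PMM2. Fructose, in contrast, is phosphorylated in the liver by ketohexokinase and feeds glycolysis and fat synthesis past the main control step of glycolysis. In a liver with steatohepatitis, hepatocytes store fat and die, the survivors and the bile duct cells divide to replace them, stellate cells deposit matrix, and macrophages are recruited.

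The libraries held 32703990 to 38304799 counts in prevention and 31298299 to 55786288 in therapy, and levels below are in CPM, the counts of a gene scaled to a common library size by TMM. The summed level of the 14 hepatocyte markers was 127308 to 131969 CPM in prevention and 122007 to 147773 CPM in therapy. Of these 14, 11 had a negative log2 difference, prevention minus therapy (median -0.11), and 0 passed the adjusted threshold of the test described below. At an unadjusted p under 0.05, 4 were lower and 1 higher, or 1 to 5 lower when 1 library was left out. Of 13 marker genes of pancreas, gut, fat and muscle, 9 did not pass the filter on low counts. In a principal component analysis of the 6 libraries, component 1 held 28.2% of the variance and placed all prevention libraries (25.9 to 40.6) above all therapy libraries (-65.1 to -2.35). Therapy replicate 2 lay nearest to prevention. Component 2 held 20.6% and set prevention replicate 2 (-67.2) apart from the other 5 libraries (-9.25 to 37.0).

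Few genes passed the threshold between 5% prevention and 5% therapy. The groups differ in the start and the length of mannose together, so these cannot be told apart. Of 19571 genes tested, 38 (0.194%) differed between prevention and therapy at a Benjamini-Hochberg adjusted p under 0.05 in edgeR's quasi-likelihood test, 21 of them higher in prevention (0.107%) and 17 lower (0.0869%). In all 38 the 3 prevention libraries did not overlap with the 3 therapy libraries. Of all tested genes, 8.24% were without overlap and higher in prevention and 7.56% without overlap and lower. Since the 38 were chosen for a difference in these same libraries, their lack of overlap is a description only. The log2 fold changes of the 38, prevention minus therapy, ranged in size from 0.46 to 4.48, while the median over all tested genes was 0.01. Higher genes included Tubb2a, Tubb2b and Ccnd1, and lower genes included Cyp7a1, G6pc and Cyp2d9. With library totals in place of TMM scaling, 26 genes were higher and 8 lower. Of the 38, 27 still passed, and Stk26, Arhgef2, Slc2a9, St3gal4, Hsd3b2, Slc29a1, Esrra, Arsa, Tmem63b, Pbld1 and Dido1 did not. The number of genes past the threshold depended on single libraries. It was 6, 55 and 6 without prevention replicates 1, 2 and 3, and 2, 201 and 10 without therapy replicates 1, 2 and 3. Each of the 38 kept its direction in all of these fits, and 2 of them, Tubb2b and Gm40787, passed in all 6. Neither passed in a fit restricted to both schedules (adjusted p = 0.0643 and 0.0541).

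**Figure D1:**
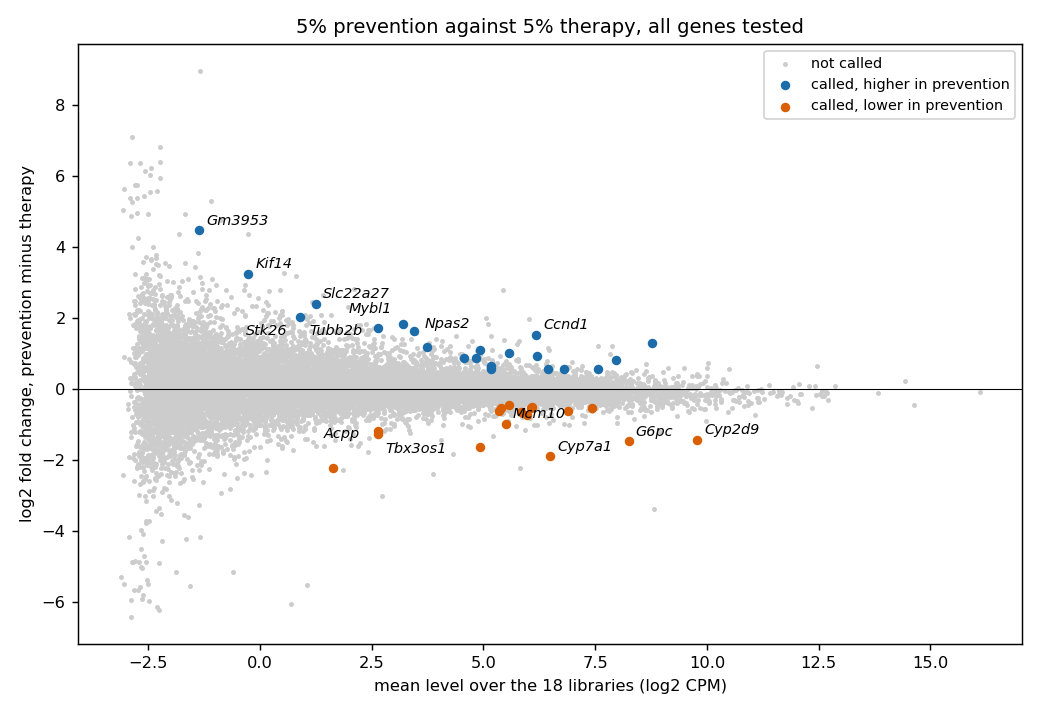
Each point is 1 of the 19571 genes tested, with its mean level over 18 libraries (log2 CPM) on the horizontal axis and its log2 fold change, 5% prevention minus 5% therapy, on the vertical axis. The 21 genes called higher in prevention are blue and the 17 called lower are orange, and most genes with wider differences at low levels did not pass the test.

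A pair of tubulin genes, the cyclin gene Ccnd1 and the regulator gene Mybl1 were higher in prevention, and the cell cycle list leaned the same way with 1 call. Other tubulin genes did not pass, with log2 differences of 0.38 for Tuba1b (adjusted p = 0.119) and 0.14 for Tuba1c (adjusted p = 0.688). Tubb2a, a beta-tubulin gene (GRCm39, chr13:34258257-34261990), was at 619, 393 and 634 CPM in prevention replicates 1 to 3 and at 188, 287 and 201 CPM in the therapy replicates. Every prevention library thus lay above every therapy library, with prevention replicate 2 the lowest of its group and therapy replicate 2 the highest. The log2 fold change was 1.28 ± 0.18 (SE; 2.43-fold; adjusted p = 0.00628). Its neighbour and close copy Tubb2b (chr13:34310731-34314449) was at 6.27, 4.80 and 9.16 CPM in prevention and at 1.87, 2.02 and 2.26 CPM in therapy. The groups were again apart, by 1.71 ± 0.21 on the log2 scale (3.28-fold; adjusted p = 0.00206). The counting command in the file header sets no option for reads that match several genes, so the levels of these close copies are uncertain. Tubb2a passed without every single library except therapy replicate 1 (adjusted p = 0.0725), and Tubb2b passed without each.

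Mybl1, which encodes the transcription factor A-Myb, was at 11.1, 10.3 and 8.38 CPM in prevention and at 2.27, 3.16 and 2.93 CPM in therapy. The lowest prevention library was above the highest therapy library, and the log2 fold change was 1.83 ± 0.26 (3.54-fold; adjusted p = 0.00628). Ccnd1, which encodes cyclin D1, the cyclin that carries cells from rest into the division cycle (chr7:144483668-144493662), was at 79.3, 36.5 and 87.0 CPM in prevention and at 16.6, 26.2 and 27.3 CPM in therapy. Prevention replicate 2 came closest to therapy, and the log2 fold change was 1.53 ± 0.28 (2.89-fold; adjusted p = 0.0319). The kinesin gene Kif14, whose product acts in the final separation of daughter cells, was close to absent in therapy, with 0.0679, 0.101 and 0.0765 CPM, and was at 1.06, 0.664 and 0.694 CPM in prevention. Its difference was 3.25 ± 0.62 (9.51-fold; adjusted p = 0.0322), at a level where few reads were counted. Stk26, a kinase gene, was at 3.26, 5.07 and 2.20 CPM in prevention and at 0.883, 0.960 and 0.727 CPM in therapy (2.03 ± 0.41; adjusted p = 0.0459). Mybl1 lost its call without therapy replicate 1 (adjusted p = 0.0725). Ccnd1 and Kif14 lost theirs without prevention replicate 1 or 3 or therapy replicate 1 or 3 (adjusted p 0.0731 to 0.196 for Ccnd1 and 0.0711 to 0.196 for Kif14), and Stk26 also without prevention replicate 2 (0.0553 to 0.206 over these 5 libraries).

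Over the 34 cell cycle genes, all had a positive difference and the median was 1.09. Ccnd1 was the 1 member that passed the adjusted threshold. At an unadjusted p under 0.05, 22 members were higher in prevention and 0 lower, beside 5.9% and 6.27% of all tested genes, and 18 members had no overlap. When 1 of the 6 libraries was left out, between 17 and 23 members were higher at that p. Ccnb2, the mitotic cyclin B2, was at 3.49, 3.65 and 3.87 CPM in prevention and at 0.747, 1.92 and 0.498 CPM in therapy (1.80 ± 0.44; adjusted p = 0.0910). Aurkb, a mitotic kinase gene, differed by 1.62 ± 0.42 (adjusted p = 0.109) and Ube2c, whose product marks mitotic proteins for destruction, by 1.48 ± 0.39 (adjusted p = 0.118). Mki67, the common marker of dividing cells, was at 13, 6.34 and 10.5 CPM in prevention and at 2.58, 7 and 2.14 CPM in therapy. Its groups overlapped through therapy replicate 2 (1.35 ± 0.47; adjusted p = 0.242). The summed level of the 34 genes was 258, 176 and 262 CPM in prevention, 113, 147 and 115 CPM in therapy and 96.6, 105 and 119 CPM in FAT-MASH. Prevention was therefore above both other groups in each library, and therapy replicate 2 was the highest of the therapy libraries.

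Not every gene of cell division was higher. Mcm10, which encodes a factor that helps to start DNA replication and was not in the list, was at 27.2, 43.6 and 28.2 CPM in prevention and at 74.3, 50.3 and 70.2 CPM in therapy. It was lower in prevention by 0.98 ± 0.18 on the log2 scale (adjusted p = 0.0319) and lost its call without prevention replicate 1 or 3 or therapy replicate 1 or 3 (adjusted p 0.0907 to 0.203). Further genes of the cytoskeleton and cell surface were higher in prevention. Arhgef2, which encodes a microtubule-bound activator of RhoA, was at 31.2, 22.9 and 29.4 CPM against 13.3, 20.3 and 12.1 CPM (0.87 ± 0.17; adjusted p = 0.0459). Dynll1, a dynein light chain gene, was at 40.5, 38.3 and 36.2 CPM against 25.7, 24.8 and 27.8 CPM (0.56 ± 0.11; adjusted p = 0.0468). Anxa5, which encodes a calcium-dependent phospholipid-binding protein, was at 351, 229 and 297 CPM against 151, 208 and 141 CPM (0.81 ± 0.16; adjusted p = 0.0335). Therapy replicate 2 was the highest of its group for Arhgef2 and Anxa5, as it was for Tubb2a. Without 1 of several libraries (prevention replicates 1 and 3 and therapy replicates 1 and 3 for each of these genes, and the other 2 as well for Dynll1), the adjusted p reached 0.244 for Arhgef2, 0.274 for Dynll1 and 0.240 for Anxa5.

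**Figure D2:**
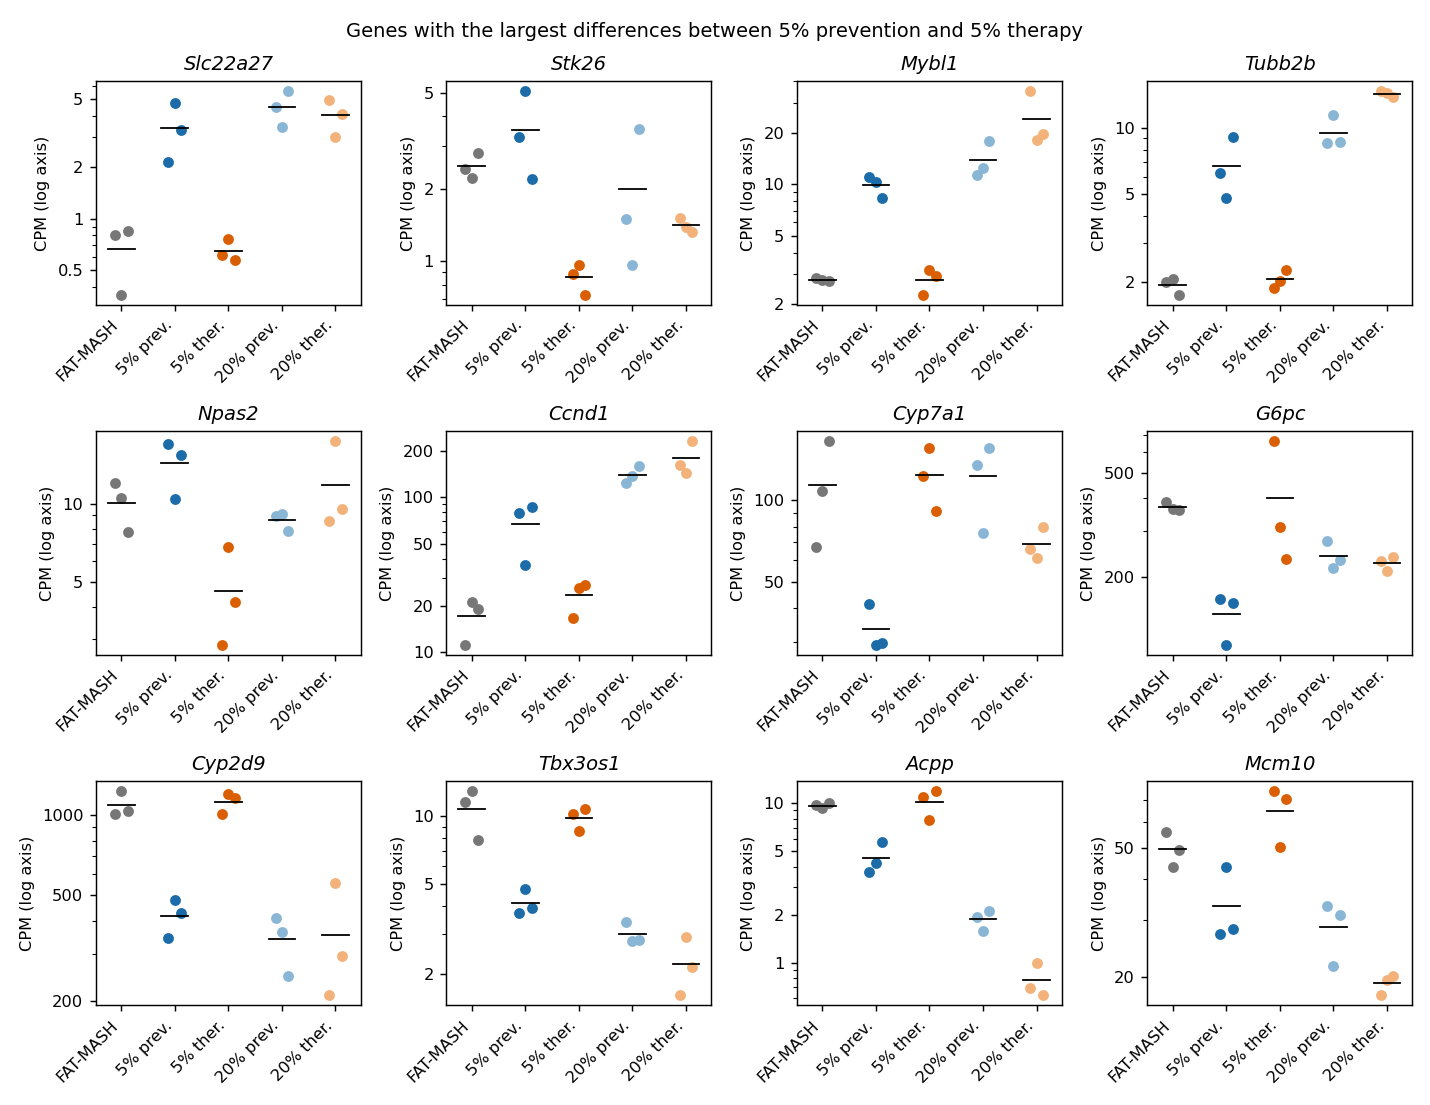
Level in CPM on a log axis for the 12 genes with the steepest rises and falls between 5% prevention and 5% therapy among those called with a mean of at least 1 CPM, in 3 libraries of each of 5 groups. Points are libraries and bars are group means. Only genes without overlap between the schedules were drawn, so in each panel 5% prevention lies on 1 side of 5% therapy.

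Promoter sequences are shown for 3 of the genes described, because these genes differed between the groups and their windows hold core promoter or cell cycle motifs that a reader may want to see in place. The windows are 300 bases, 250 before and 50 after the transcription start, from RefSeq on GRCm38.p6, which is an older build than the GRCm39 used for the counts. Kif14 is from chr1:136467598-136467897 on the plus strand, and its capitals mark TTTGAA, the core of the cell cycle homology region, 228 bases before the start, and a CCAAT box 92 bases before it. Tubb2a is from chr13:34077959-34078258 on the minus strand, and its capitals mark the TATA box sequence TATAAA 29 bases before the start. G6pc, the glucose 6-phosphatase gene described below, is from chr11:101367466-101367765 on the plus strand, and its capitals mark TATAAA 29 bases before the start and CCAAT on the plus strand at 204 and on the minus strand (read here as ATTGG) at 214 bases before it.
Kif14: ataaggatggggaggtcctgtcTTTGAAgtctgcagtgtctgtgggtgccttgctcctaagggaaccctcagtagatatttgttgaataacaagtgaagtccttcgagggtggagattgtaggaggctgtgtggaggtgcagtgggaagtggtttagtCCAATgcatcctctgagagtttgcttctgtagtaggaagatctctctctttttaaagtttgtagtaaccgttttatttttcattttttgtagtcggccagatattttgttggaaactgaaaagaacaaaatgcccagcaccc
Tubb2a: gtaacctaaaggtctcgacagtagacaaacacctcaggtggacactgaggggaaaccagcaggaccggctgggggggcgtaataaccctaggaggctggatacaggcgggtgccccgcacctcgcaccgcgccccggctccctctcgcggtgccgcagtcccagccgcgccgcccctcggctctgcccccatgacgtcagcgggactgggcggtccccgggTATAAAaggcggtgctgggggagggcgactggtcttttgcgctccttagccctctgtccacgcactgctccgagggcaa
G6pc: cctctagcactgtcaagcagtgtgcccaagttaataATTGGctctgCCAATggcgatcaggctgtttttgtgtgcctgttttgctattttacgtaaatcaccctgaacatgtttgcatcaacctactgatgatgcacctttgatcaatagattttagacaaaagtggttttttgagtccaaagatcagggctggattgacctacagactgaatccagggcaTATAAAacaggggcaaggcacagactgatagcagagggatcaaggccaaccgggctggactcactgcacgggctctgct
Of the 38 genes, 30 had a promoter in this table. On either strand, CCAAT was in 10 of the 30 and in 37.92% of all 27025 promoters, TTTGAA in 5 and in 18.11%, TATAAA in 3 and in 14.16%, and the E-box CACGTG in 3 and in 7.241%. These counts describe letters in the windows, and none of them was tested.

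The leading enzyme of bile acid synthesis was lower in prevention, and a bile acid importer was higher. Cyp7a1, the rate-limiting enzyme of bile acid synthesis (chr4:6265612-6275633), was at 41.5, 29.2 and 29.6 CPM in prevention, at 123, 157 and 91.6 CPM in therapy and at 67.2, 109 and 165 CPM in FAT-MASH. Every prevention library lay below every library of therapy and of FAT-MASH, while the latter groups overlapped. Prevention was lower than therapy by 1.89 ± 0.30 on the log2 scale (3.70-fold; adjusted p = 0.0150). Slc10a2, the sodium-dependent bile acid importer of ileum and bile duct cells (chr8:5133219-5155351), was at 64.9, 63.2 and 85.2 CPM in prevention and at 24.6, 37.5 and 42.4 CPM in therapy. It was higher in prevention by 1.03 ± 0.19 (2.04-fold; adjusted p = 0.0322). The call on Cyp7a1 was lost without prevention replicate 3 or therapy replicate 1 (adjusted p 0.0711 and 0.0725) and in a fit of all 25 libraries with a batch term, and that on Slc10a2 without prevention replicate 1 or 3 or therapy replicate 1 (0.0982 to 0.196).

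Of 23 tested genes of bile acid synthesis and transport, Cyp7a1 was the 1 past the adjusted threshold, and 9 were lower and 1 higher in prevention at an unadjusted p under 0.05. The median was -0.20. Nr1h4, the bile acid receptor FXR, was at 101, 112 and 108 CPM in prevention and at 163, 137 and 135 CPM in therapy (-0.44 ± 0.10; adjusted p = 0.0760). Slc27a5, which encodes the ligase that activates bile acids for conjugation, was at 706, 667 and 767 CPM against 1112, 915 and 1064 CPM (-0.53 ± 0.12; adjusted p = 0.0798). Slc10a1, the importer of bile acids from blood, was at 314, 299 and 336 CPM against 586, 388 and 460 CPM (-0.59 ± 0.17; adjusted p = 0.141). In these 3 genes the groups did not overlap, yet the differences missed the adjusted threshold. The higher member at the unadjusted p was Nr0b2, a repressor of Cyp7a1, at 53.1, 50.9 and 63.5 CPM against 47.6, 35.5 and 35.7 CPM (0.50; unadjusted p = 0.0327).

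Markers of bile duct cells leaned the same way as Slc10a2 and the cell cycle genes. All 14 markers of cholangiocytes had a positive difference (median 0.96) and 0 passed the adjusted threshold. At an unadjusted p under 0.05, 11 were higher, beside 5.9% of all tested genes, and 12 were higher without overlap, beside 8.24%. The count of 11 became 5 without prevention replicate 1 or therapy replicate 1 or 3, and 7 without prevention replicate 2. Their summed level was 433, 440 and 302 CPM in prevention, 215, 254 and 190 CPM in therapy and 204, 210 and 224 CPM in FAT-MASH. Spp1, which macrophages also express, made up much of that sum, at 237, 241 and 142 CPM against 90.1, 110 and 69.1 CPM. The keratin gene Krt19 was at 8.98, 9.60 and 6.10 CPM against 3.09, 4.50 and 1.82 CPM (1.40 ± 0.47; adjusted p = 0.218), and Sox9 at 21.4, 18.1 and 15.6 CPM against 11.9, 11.4 and 12.0 CPM (0.64 ± 0.20; adjusted p = 0.183). The part of these cells in the differences of Slc10a2 and of the cell cycle genes was not tested.

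The enzyme of glucose release was lower in prevention. G6pc, which encodes the catalytic subunit of glucose 6-phosphatase (chr11:101258387-101268729), the last step of glucose output, was at 165, 111 and 159 CPM in prevention and at 661, 312 and 236 CPM in therapy. Therapy replicate 1 stood well above the other 2, and FAT-MASH was at 388, 364 and 361 CPM. Prevention was lower than therapy by 1.47 ± 0.25 on the log2 scale (2.77-fold; adjusted p = 0.0261). The call was lost without any of the 3 prevention libraries or without therapy replicate 1 (adjusted p 0.0548 to 0.0926). Among 12 gluconeogenesis genes, 11 had a negative difference (median -0.30), 5 were lower at an unadjusted p under 0.05 and 0 higher, or 3 lower without therapy replicate 1. Slc37a4, the transporter that supplies glucose 6-phosphate to that enzyme, was at 113, 116 and 118 CPM against 260, 132 and 183 CPM (-0.73 ± 0.21; adjusted p = 0.152). Sds, serine dehydratase, was at 37.8, 60.6 and 48.8 CPM against 138, 48.3 and 111 CPM, so that therapy replicate 2 lay within prevention (-1.01 ± 0.30; adjusted p = 0.161).

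Fructose handling is the pathway named in the title of the study. Of its 13 genes, 1 passed, Slc2a9, a transporter of urate and hexoses, at 34.4, 35.9 and 40.4 CPM in prevention and at 55.6, 48.5 and 56.4 CPM in therapy (-0.54 ± 0.10; adjusted p = 0.0322). The groups did not overlap, and FAT-MASH (49.7, 49.9 and 49.8 CPM) lay within the range of therapy. The call was lost without each library except therapy replicate 2 (adjusted p 0.0553 to 0.209), and also with library totals as scaling (0.0679). Slc2a5, the fructose transporter GLUT5, was at 2.98, 2.23 and 3.47 CPM in prevention and at 11.0, 7.28 and 8.19 CPM in therapy, without overlap, and missed the threshold (-1.60 ± 0.35; adjusted p = 0.0725). It passed in 5 of 14 alternative fits. These were without therapy replicate 2 (adjusted p = 0.0364), DESeq2 (0.00138), limma with voom (0.0111), all 25 libraries with a batch term (0.0485) and no filter on low counts (1.47e-06). Khk, ketohexokinase, was at 556, 437 and 666 CPM against 900, 567 and 698 CPM, with overlap (-0.39 ± 0.17; adjusted p = 0.367). Tkfc, triokinase, differed by -0.25 with a 95% interval of -0.57 to 0.06. In the list as a whole 5 genes were lower at an unadjusted p under 0.05 and 0 higher, with a median of -0.25.

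Genes that act on mannose itself had no call between the schedules. Mpi was at 13, 14.1 and 14.7 CPM in prevention and at 16.5, 13.4 and 12.7 CPM in therapy, a log2 difference of -0.03 with a 95% interval of -0.34 to 0.29. Pmm1 differed by 0.38 (interval -0.52 to 1.27) and Pmm2 by -0.23 (interval -0.43 to -0.03; adjusted p = 0.329). Of 19 genes of mannose and nucleotide sugar metabolism 0 passed, with 2 higher and 1 lower at an unadjusted p under 0.05 and a median of 0.08. Of 26 genes of N-glycan assembly and trimming 0 passed either, with 4 higher and 2 lower at that p and a median of 0.02, and with 1 or 2 higher and 0 to 3 lower when any 1 library was left out. A glycan gene outside these lists, St3gal4, which encodes a sialyltransferase, was lower in prevention, at 54.3, 51.5 and 55.7 CPM against 89.7, 66.6 and 77.5 CPM (-0.53 ± 0.10; adjusted p = 0.0322). It lost the call without each library except therapy replicate 2 (adjusted p 0.0712 to 0.196) and with library totals as scaling (0.0610).

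The sugar sensor and the genes of fat and cholesterol synthesis had no call. Of 17 genes of glycolysis and ChREBP targets, 1 passed, G6pc, which that list also holds, and 7 were lower and 1 higher at an unadjusted p under 0.05 (median -0.18), with 4 lower without prevention replicate 2. Mlxipl, the sugar-responsive transcription factor ChREBP, was at 361, 354 and 367 CPM against 480, 402 and 619 CPM (-0.47 ± 0.20; adjusted p = 0.332), and its target Pklr, pyruvate kinase, at 252, 160 and 278 CPM against 437, 263 and 313 CPM (-0.55 ± 0.21; adjusted p = 0.284). Fasn, fatty acid synthase, differed by 0.12 (95% interval -0.49 to 0.72), Scd1 by 0.23 (-0.17 to 0.64) and Srebf1 by -0.53 (-1.18 to 0.12). In the lipogenesis list 4 of 18 genes were higher and 1 lower at an unadjusted p under 0.05, with a median of 0.09, and 2 were higher without prevention replicate 1 or 3 or therapy replicate 1. In the cholesterol list 3 of 22 were higher and 0 lower, with a median of 0.19. Leaving out 1 library moved that count of 3 to between 1 (without therapy replicate 1) and 8 (without therapy replicate 3), with 6, 2 and 5 without prevention replicates 2 and 3 and therapy replicate 2. The lipid droplet gene Cidec was at 46.7, 24 and 33.4 CPM in prevention and at 4.41, 25 and 7.44 CPM in therapy, where therapy replicate 2 lay within prevention (1.49 ± 0.48; adjusted p = 0.208). Among fat oxidation genes Acot2, an acyl-CoA thioesterase gene, was at 35.1, 29 and 24 CPM against 11.0, 18.8 and 15.5 CPM without overlap (0.96 ± 0.20; adjusted p = 0.0573).

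A clock gene was higher in prevention, and more of the clock list leaned lower than higher. Npas2, a transcription factor that pairs with BMAL1 in place of CLOCK (chr1:39232812-39402317), was at 17.0, 10.4 and 15.5 CPM in prevention and at 2.85, 6.77 and 4.17 CPM in therapy. FAT-MASH, at 12.0, 10.5 and 7.78 CPM, was above therapy and overlapped with prevention. Prevention was higher than therapy by 1.63 ± 0.29 on the log2 scale (3.10-fold; adjusted p = 0.0319), and the call was lost without prevention replicate 1 or 3 or therapy replicate 1 or 3 (0.0711 to 0.185). Of 20 clock genes 2 were higher and 8 lower in prevention at an unadjusted p under 0.05, with a median of -0.57, and 1, Npas2, passed the adjusted threshold. The count of 8 lower was 5 without prevention replicate 3. The higher ones were Npas2 and Bmal1 (listed as Arntl), at 31.3, 19.6 and 34.6 CPM against 9.84, 21.1 and 18.3 CPM (0.79; unadjusted p = 0.00544). Genes that BMAL1 drives had lower values without passing. Dbp was at 5.71, 13.1 and 9.77 CPM in prevention and at 61.3, 19.0 and 68.0 CPM in therapy (-2.38; unadjusted p = 0.00483), Tef at 37.1, 65.3 and 44.9 CPM against 133, 67.3 and 125 CPM (-1.14 ± 0.29; adjusted p = 0.102), and Hlf at 27.9, 32.4 and 28.5 CPM against 62.0, 48.8 and 40.5 CPM (-0.77 ± 0.16; adjusted p = 0.0550). In Dbp and Tef, therapy replicate 2 was far from its group and nearest to prevention replicate 2. Cyp7a1, G6pc and other metabolic genes follow the time of day in mouse liver. The part of the hour of collection in the differences was not tested.

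Genes of drug and steroid metabolism and of organic anion transport were among those past the threshold. Cyp2d9, a cytochrome P450 gene expressed more in males (chr15:82317638-82341046), was at 346, 478 and 427 CPM in prevention, at 1009, 1190 and 1154 CPM in therapy and at 1007, 1222 and 1036 CPM in FAT-MASH. Prevention was lower than therapy by 1.42 ± 0.24 on the log2 scale (2.68-fold; adjusted p = 0.0261), with therapy and FAT-MASH at overlapping levels. Hsd3b2, of the 3-beta-hydroxysteroid dehydrogenase family, was at 46.1, 56.9 and 47.0 CPM against 92.0, 79.1 and 77.9 CPM (-0.73 ± 0.14; adjusted p = 0.0345). Slc22a27, of the organic anion transporter family, was at 2.15, 4.80 and 3.32 CPM in prevention and at 0.611, 0.758 and 0.574 CPM in therapy (2.40 ± 0.36; 5.26-fold; adjusted p = 0.00882). All 3 genes have close copies, so their levels are uncertain. Of 19 male-biased genes 17 had a negative difference, 5 were lower at an unadjusted p under 0.05 and 1 was higher (median -0.30), Cyp2d9 being the 1 that passed. The count of 5 was 3 without therapy replicate 2 or 3, and the median was -0.09 without therapy replicate 2 and -0.70 and -0.64 without prevention replicate 3 and therapy replicate 1. Of 16 female-biased genes 7 were higher at that p and 0 lower (median 0.70), and this count was 2 without prevention replicate 3 or therapy replicate 2 and 4 without prevention replicate 1. Of the 16, 10 had a positive and 6 a negative difference. The summed level of that list did not lean higher, at 602, 871 and 711 CPM in prevention and 811, 886 and 761 CPM in therapy. Of 23 xenobiotic cytochromes 6 were higher and 8 lower (median -0.32), the latter count being 4, 3 and 3 without prevention replicates 1 and 3 and therapy replicate 1. The count of 6 higher was 3 and 2 without prevention replicate 3 and therapy replicate 2. Cyp3a11, an inducible drug-metabolizing enzyme, was at 5099, 5937 and 5225 CPM against 3086, 3205 and 4142 CPM (0.64 ± 0.18; adjusted p = 0.139). Cyp2d9 and Hsd3b2 lost their calls without prevention replicate 1 or 3 or therapy replicate 1 or 3 (0.0711 to 0.168 and 0.0731 to 0.220), and Slc22a27 without therapy replicate 1 or 3 (0.0725 and 0.0545). Hsd3b2 also lost its call with library totals as scaling (0.0829).

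The remaining genes past the threshold belong to several roles. Higher in prevention were Dnajb9, a chaperone cofactor of the endoplasmic reticulum, at 77.0, 83.9 and 96.2 CPM against 38.6, 39.6 and 57.6 CPM (0.92 ± 0.17; adjusted p = 0.0322), Map3k13, a kinase gene, at 28.0, 29.9 and 33.2 CPM against 13, 17.1 and 19.3 CPM (0.88 ± 0.15; adjusted p = 0.0242), Abtb2 (1.10 ± 0.22; adjusted p = 0.0468) and Ccdc120 (1.17 ± 0.19; adjusted p = 0.0150). In Dnajb9 and Map3k13 the FAT-MASH libraries lay between the groups, at 59.4 to 69.1 CPM and 20.6 to 23.7 CPM. Lower in prevention were Acpp, an acid phosphatase gene, at 3.69, 4.23 and 5.69 CPM against 11.0, 7.86 and 11.8 CPM (-1.17 ± 0.21; adjusted p = 0.0319), Tbx3os1, a transcript antisense to Tbx3, at 3.74, 4.77 and 3.93 CPM against 10.3, 8.62 and 10.8 CPM (-1.25 ± 0.24; adjusted p = 0.0335), and Slc29a1, a nucleoside transporter gene, at 81.8, 78.8 and 101 CPM against 133, 110 and 155 CPM (-0.61 ± 0.12; adjusted p = 0.0468). Counting ignored strand, so reads of Tbx3os1 cannot be told apart from those of genes that overlap it, and Tbx3 itself was at 29.5, 39.6 and 28.0 CPM against 37.8, 69.0 and 54.3 CPM. Esrra, the nuclear receptor ERR-alpha, was at 34.3, 31 and 35.7 CPM against 56.9, 45.9 and 53.3 CPM (-0.63 ± 0.12; adjusted p = 0.0319), and Arsa, the lysosomal arylsulfatase A, at 47.3, 49.5 and 51.5 CPM against 84.1, 61.0 and 87.2 CPM (-0.65 ± 0.12; adjusted p = 0.0335). FAT-MASH was at 61.2, 58.0 and 51.2 CPM for Arsa and overlapped with both groups.

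Each gene of that group lost its call without at least 3 single libraries. For Dnajb9 these were all but therapy replicate 3 (adjusted p 0.0530 to 0.223), for Map3k13 prevention replicates 1 and 3 and therapy replicate 1 (0.0710 to 0.185), and for Abtb2, Ccdc120 and Tbx3os1 prevention replicates 1 and 3 and therapy replicates 1 and 3 (highest adjusted p 0.220, 0.152 and 0.220). For Acpp they were prevention replicates 1 and 2 and therapy replicates 1 and 3 (0.0634 to 0.185). Slc29a1, Esrra and Arsa lost theirs without each library except therapy replicate 2 (highest 0.240, 0.185 and 0.203), and with library totals as scaling (0.0686, 0.0642 and 0.0695). The other 10 genes not yet given values were Samd9l, Sorbs2, Mal2, Cxadr and the predicted gene Gm3953, which were higher, and Gm40787, Gm31583, Tmem63b, Pbld1 and Dido1, which were lower. Their log2 differences were 0.56 to 0.66 for the 4 named genes that were higher and -0.53 to -0.46 for the 3 named genes that were lower. Gm40787, a predicted gene, was at 0.860, 1.36 and 1.19 CPM in prevention and at 4.85, 4.04 and 6.91 CPM in therapy (-2.22 ± 0.28; adjusted p = 0.00206).

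Markers of inflammation, scarring and immune cells had no call, though many leaned to higher levels in prevention. Of 17 chemokine genes 0 passed, 6 were higher at an unadjusted p under 0.05 and 0 lower (median 0.72), and of 26 genes of inflammatory signalling 0 passed, 10 were higher and 0 lower (median 0.40). These counts rested on single libraries. That of chemokines was 3, 3 and 2 without prevention replicate 1 and therapy replicates 1 and 3 and 10 without therapy replicate 2. That of inflammatory signalling was 4 without prevention replicate 1 or therapy replicate 3, and at most 15 when another library was left out. Ccl2, which recruits monocytes, was at 6.02, 2.05 and 3.76 CPM in prevention and at 1.02, 2.83 and 0.957 CPM in therapy, with overlap (1.30 ± 0.48; adjusted p = 0.272). Of 34 matrix genes 0 passed, 7 were higher and 0 lower (median 0.45), but 1 and 3 without prevention replicates 1 and 2 and 2 and 0 without therapy replicates 1 and 3. The count of 7 became at most 10 when another library was left out. Col1a1, a chain of fibrillar collagen, was at 78.4, 50.3 and 53.9 CPM against 38.4, 36.1 and 17.9 CPM, without overlap but with wide spread (0.99 ± 0.53; adjusted p = 0.480). Timp1, an inhibitor of matrix proteases, was at 5.18, 3.56 and 3.82 CPM against 1.22, 2.43 and 0.459 CPM (1.62 ± 0.59; adjusted p = 0.266). Therapy replicate 3 was the lowest library in Col1a1 and Timp1. Acta2, the marker of activated stellate cells, differed by 0.12 with a 95% interval of -0.94 to 1.18.

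Macrophage markers were also low in therapy replicate 3. Of 20 markers of recruited and lipid-associated macrophages all had a positive difference (median 0.44), 0 passed and 3 were higher at an unadjusted p under 0.05, or 9 without therapy replicate 2 (median 0.93). The median was 0.17 without therapy replicate 3. Trem2, a lipid receptor of these cells, was at 15.6, 16.1 and 14.9 CPM in prevention and at 13.1, 16.4 and 5.24 CPM in therapy (0.43; 95% interval -0.84 to 1.69), and Gpnmb at 41.2, 62.4 and 41.5 CPM against 38.5, 71.9 and 8.96 CPM (0.28; interval -1.84 to 2.41). In both genes therapy replicate 3 was far below the other 5 libraries and therapy replicate 2 was the highest. The summed level of the list was 2148 to 2742 CPM in prevention and 2177, 2486 and 1452 CPM in therapy. Kupffer cell markers had a median of -0.04, which became 0.04 with library totals as scaling, with 1 higher and 1 lower of 15 at an unadjusted p under 0.05. T and NK cell markers had low levels, summing to 19.1 to 25.6 CPM in prevention and 10.5 to 16.7 CPM in therapy, with 5 of 18 higher at that p and 0 lower (median 0.81), and 1 or 2 higher without prevention replicate 1 or 3 or therapy replicate 1 or 3. For 9 neutrophil markers these counts were 2 and 0 (median 1.00), with 5 higher without therapy replicate 2 and 1 without prevention replicate 2 or therapy replicate 1 or 3, and Ly6g, which defines those cells, was at 0 CPM in all 3 prevention libraries and in therapy replicate 1.

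Immediate early and stress genes had no call apart from Dnajb9. All 19 immediate early genes had a positive difference (median 0.72), 0 passed and 11 were higher at an unadjusted p under 0.05, or 5 without prevention replicate 1 and 7 without therapy replicate 3. Egr1, a transcription factor induced within minutes of many stimuli, was at 87.4, 34.1 and 46.1 CPM in prevention and at 4.99, 8.69 and 10.5 CPM in therapy, while FAT-MASH was at 42.1, 9.56 and 26.7 CPM (2.78 ± 0.61; adjusted p = 0.0725). Saa3, an acute phase gene, was at 80.7, 88.1 and 74.4 CPM against 19.0, 34.1 and 8.44 CPM (1.99 ± 0.43; adjusted p = 0.0667), although the 25 acute phase genes leaned lower, with 2 higher, 5 lower and a median of -0.12. Cdkn1a, the p53 target and cell cycle inhibitor p21, was at 85.2, 51.9 and 58.9 CPM against 13.2, 41.3 and 22.4 CPM, without overlap (1.35 ± 0.33; adjusted p = 0.0950), and passed without therapy replicate 2 (adjusted p = 0.0138). Gdf15, a stress hormone gene, was at 40.1, 29.1 and 20.8 CPM against 13.6, 22.4 and 17.5 CPM (0.75 ± 0.25; adjusted p = 0.213), and Fgf21, another, differed by 0.49 with a 95% interval of -0.52 to 1.51. FAT-MASH was at 93.3, 34.4 and 68.5 CPM for Cdkn1a and at 39.5, 42.5 and 31.8 CPM for Gdf15. Against FAT-MASH, Cdkn1a was at -0.003 ± 0.33 in prevention and -1.35 ± 0.33 in therapy (adjusted p = 0.221). Gdf15 was at -0.34 ± 0.24 and -1.09 ± 0.25 (adjusted p = 0.136 in therapy). Therapy was thus the group farther from FAT-MASH in Cdkn1a and Gdf15, without passing. Of 20 NRF2 target genes 0 reached an unadjusted p under 0.05 in either direction (median -0.11), but 7 were lower without prevention replicate 2 (median -0.46). The summed level of that list was 5671, 10990 and 5198 CPM in prevention and 7236, 7695 and 10855 CPM in therapy, so that prevention replicate 2 and therapy replicate 3 were the highest libraries.

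**Figure D3:**
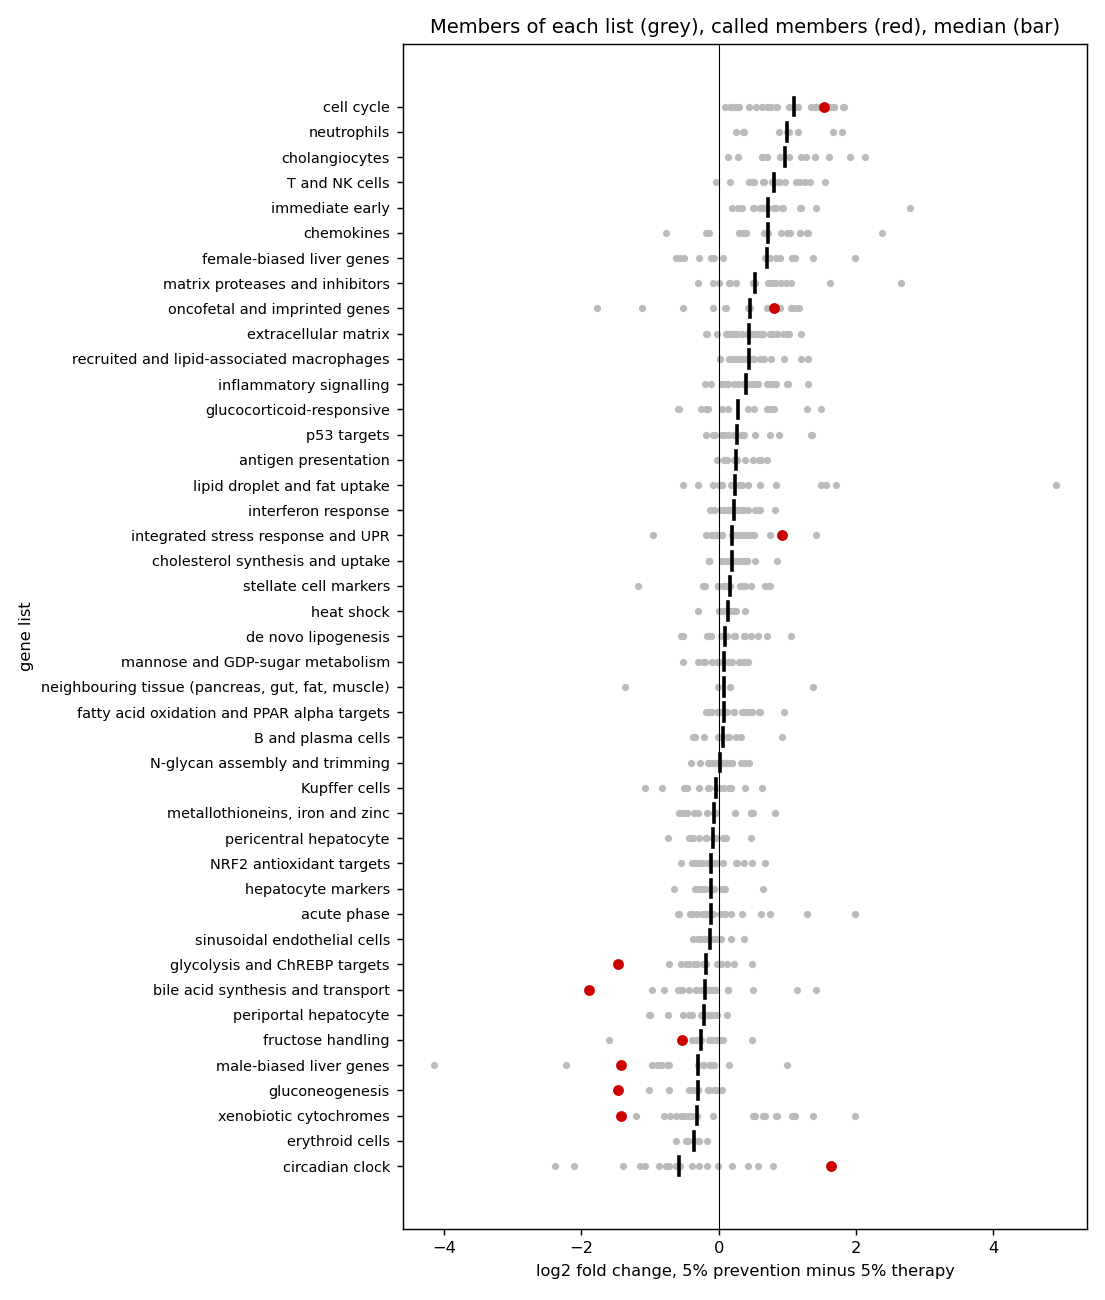
Log2 fold change, 5% prevention minus 5% therapy, of the tested members of 43 gene lists (grey points), with members past the adjusted threshold in red and the list median as a bar, sorted by median. The cell cycle list lies at the top, with a median of 1.09, and the clock list at the bottom, with a median of -0.57 and Npas2 far to its right.

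Each schedule was also set beside FAT-MASH without mannose. Against FAT-MASH, 445 genes (2.27%) passed in prevention, 189 of them higher (0.966%) and 256 lower (1.31%), and 7 (0.0358%) passed in therapy, 5 higher (0.0255%) and 2 lower (0.0102%). At an unadjusted p under 0.05, 6.94% of the tested genes were higher and 8.17% lower in prevention, and 2.92% were higher and 3.31% lower in therapy. Both counts use the same 3 FAT-MASH libraries, and a gene that passes in 1 and not in the other is not shown to differ between them. Of the 38 genes called between the schedules, 26 also passed in prevention against FAT-MASH and 0 in therapy against FAT-MASH. In 31 of the 38 the prevention mean was farther from FAT-MASH than the therapy mean, and in 24 the means of the schedules lay on opposite sides of the FAT-MASH mean. Since the 38 were chosen for a difference between the schedules in the same libraries, these counts are a description only. Mybl1 was 1.83 ± 0.26 above FAT-MASH in prevention and 0.01 ± 0.27 above it in therapy. Cyp7a1 was at -1.76 ± 0.30 and 0.12 ± 0.29, and Ccnd1 at 1.99 ± 0.28 and 0.46 ± 0.28. In contrast, Npas2 was at 0.50 ± 0.28 in prevention and at -1.13 ± 0.29 in therapy, and Stk26 at 0.50 ± 0.38 and -1.53 ± 0.40, so that therapy was the group farther away. The count for prevention was 127 and 289 without prevention replicates 1 and 3, and 154 and 265 without FAT-MASH replicates 1 and 2.

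**Figure D4:**
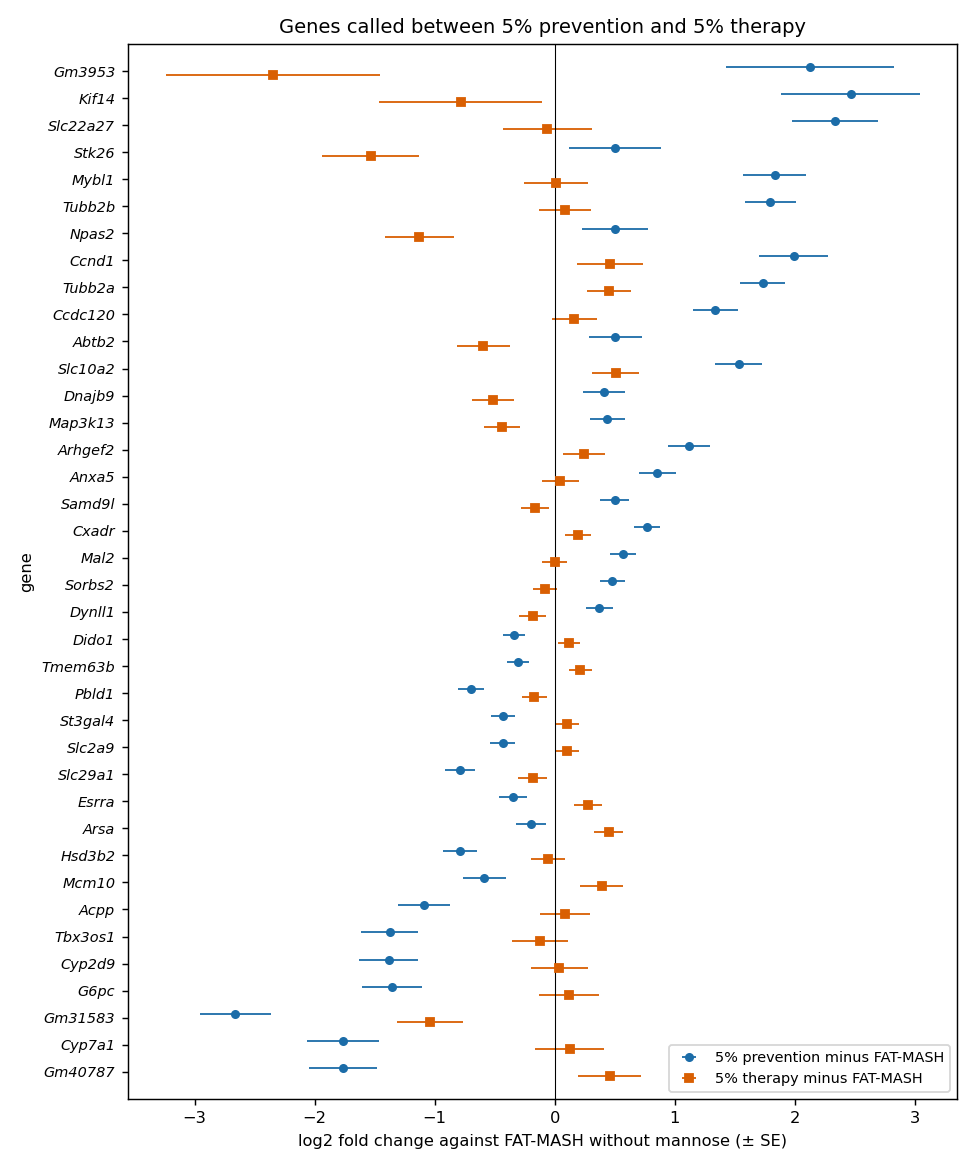
Log2 fold change against FAT-MASH without mannose (± SE) for the 38 genes called between the schedules, with 5% prevention as blue circles and 5% therapy as orange squares. Most orange squares lie near 0, and Stk26, Npas2 and Gm3953 are among those below it.

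The genes past the threshold in therapy against FAT-MASH included Aacs, Eps8l1, Peg10 and Tuba1c, which rose, and Ip6k2 and Arl4d, which fell. None of the 7 passed the test between the schedules. Aacs, which encodes an enzyme that makes acetoacetyl-CoA for lipid synthesis, was at 25.7, 27.5 and 19.5 CPM in FAT-MASH, 87.1, 49.4 and 71.5 CPM in therapy and 49.0, 39.8 and 63.0 CPM in prevention, and rose by 1.52 ± 0.20 with therapy (adjusted p = 0.00632). The imprinted gene Peg10 was at 2.54 to 3.47 CPM in FAT-MASH, at 5.23, 7.99 and 11.0 CPM in therapy and at 10.8, 11.5 and 11.0 CPM in prevention (therapy 1.44 ± 0.22; adjusted p = 0.0135). For both genes prevention and therapy lay on the same side of FAT-MASH. Between the schedules they differed by -0.45 ± 0.19 (Aacs) and 0.45 ± 0.21 (Peg10) on the log2 scale. The count of 7 was 0, 43 and 2 without FAT-MASH replicates 1, 2 and 3.

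The difference between schedules was compared with that at 20% mannose. A test of the difference itself, prevention minus therapy at 5% less prevention minus therapy at 20%, called 424 of the 19571 genes (2.17%), of which 196 (1%) had the higher value at 5% and 228 (1.16%) the lower. At an unadjusted p under 0.05 these shares were 7.6% and 8.49%. In 422 of the 424 the fitted sign at 5% was opposite to that at 20%, 195 being higher in prevention at 5% and lower at 20%, and 227 the reverse. Genes picked for a wide gap between the doses tend to have opposite signs by that choice, so these counts describe the 424 and support nothing further. Of the 38 genes called at 5%, 30 were among the 424 and 28 had the opposite sign at 20%. The test holds the same difference at 5% for which the 38 were chosen, so these counts are also a description only. With library totals as scaling, which moved the median of all genes in this test to 0.21 and in prevention against FAT-MASH to 0.11, 722 genes were called, 601 with the higher value at 5% and 121 with the lower. Library totals also gave 393 higher and 154 lower in prevention against FAT-MASH. The count of 424 fell to 72, 272, 218 and 185 without 5% prevention replicates 1 and 3 and 5% therapy replicates 1 and 3, to 129 without 20% prevention replicate 1, and to 119 and 272 without 20% therapy replicates 1 and 3.

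The gene with the smallest p in this test was Tuba1b, which encodes an alpha-tubulin. It was at 59.1, 62.3 and 54.3 CPM in 5% prevention, 40.4, 47.2 and 47.0 CPM in 5% therapy, 52.1, 59.2 and 57.9 CPM in 20% prevention and 117, 98.2 and 96.7 CPM in 20% therapy. The highest group at 20% was therefore therapy, and the difference of differences was 1.26 ± 0.14 (adjusted p = 0.000819). Tubb2b (2.30 ± 0.29; adjusted p = 0.00188), Mybl1 (2.63 ± 0.36; adjusted p = 0.00242), Tubb2a (1.72 ± 0.26; adjusted p = 0.00428) and Dynll1 (1.05 ± 0.16; adjusted p = 0.00428) followed. For Mybl1 the 20% groups were at 11.3, 12.5 and 17.9 CPM in prevention and 35, 18.2 and 19.6 CPM in therapy. The predicted gene Gm3953 gave the widest of these values, 7.28 ± 1.12 (adjusted p = 0.00428), at levels under 1 CPM in all libraries of both doses. Of the 34 cell cycle genes 22 were called higher in this test and 0 lower, and the list's median was 1.09 at 5% and -1.21 at 20%. Mki67 was at 26.0, 22.2 and 22.6 CPM in 20% prevention and 85.8, 27.2 and 54.7 CPM in 20% therapy (difference of differences 2.59 ± 0.64; adjusted p = 0.0400).

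On the lower side, the genes with the smallest p were Acpp, Tdo2, Abca8a, Hrg, Slc27a5 and Cyp2c50. Tdo2, which starts tryptophan breakdown, was at 974, 1589 and 1121 CPM in 5% prevention, 2160, 1833 and 1799 CPM in 5% therapy, 1543, 1193 and 975 CPM in 20% prevention and 521, 629 and 458 CPM in 20% therapy (-1.86 ± 0.25; adjusted p = 0.00242). The group with the lowest level was thus 20% therapy. Acpp was at 1.94, 1.58 and 2.12 CPM in 20% prevention and 0.696, 0.998 and 0.627 CPM in 20% therapy (-2.46 ± 0.32; adjusted p = 0.00188). Abca8a, a lipid transporter gene (-1.31 ± 0.19; adjusted p = 0.00359), Hrg, which encodes a plasma glycoprotein (-0.96 ± 0.14; adjusted p = 0.00428), Slc27a5 (-1.20 ± 0.18; adjusted p = 0.00428) and Cyp2c50, a cytochrome P450 gene with close copies (-2.0 ± 0.30; adjusted p = 0.00428), had the same pattern. All 12 genes named for this test passed in each alternative fit that gave a value, 19 for Gm3953 and 20 for each of the others. Since these 12 were picked for the smallest p in the same libraries, their passing is a description only. Cyp7a1, in contrast to its order at 5%, was at 135, 75.5 and 157 CPM in 20% prevention and 66.1, 61.2 and 79.4 CPM in 20% therapy (-2.72 ± 0.42; adjusted p = 0.00428). Of 23 bile acid genes 7 were called lower and 0 higher in this test. Cyp2d9 kept the same fitted sign at both doses. It was at 411, 364 and 249 CPM in 20% prevention and 211, 554 and 294 CPM in 20% therapy, a log2 difference of -0.05 ± 0.24. Of the 12 named genes, only Acpp passed between the schedules at both doses (adjusted p = 0.0319 at 5% and 0.0473 at 20%). At 20%, Tubb2b (0.207), Mybl1 (0.163), Tubb2a (0.322), Dynll1 (0.0733), Gm3953 (0.105) and Cyp7a1 (0.227) did not pass. At 5%, Tuba1b, Tdo2 (0.132), Abca8a (0.0831), Hrg (0.142), Slc27a5 and Cyp2c50 (0.351) did not. Opposite signs in those genes are thus fitted values and not calls at each dose.

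**Figure D5:**
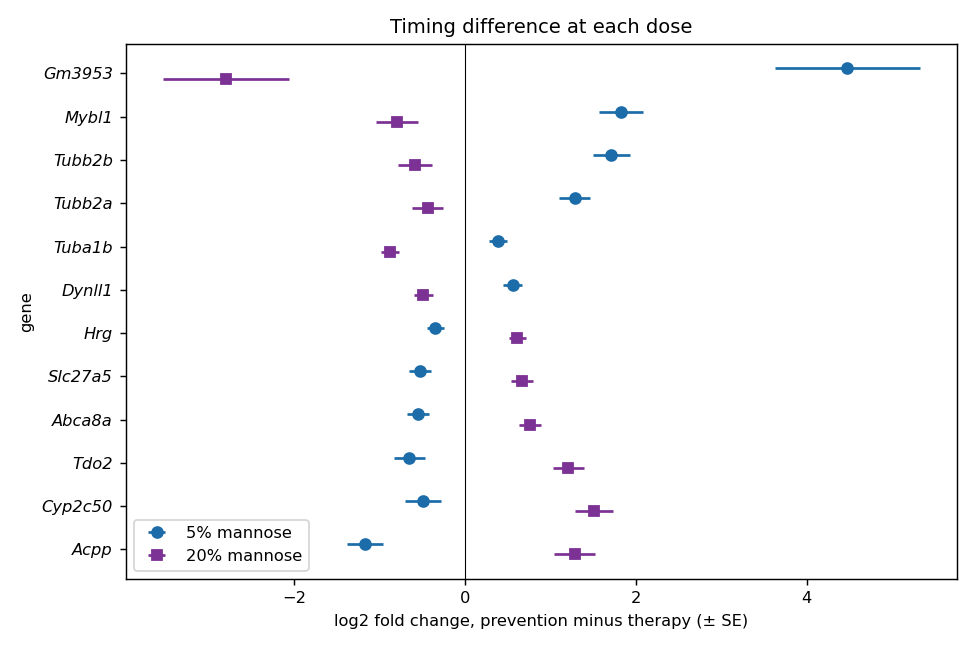
Log2 fold change, prevention minus therapy (± SE), at 5% mannose (blue circles) and at 20% mannose (purple squares) for the 12 genes with the smallest p in the test of the difference between doses. Each gene lies on opposite sides of 0 at the 2 doses, for example Mybl1 at 1.83 and -0.80.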

How the data were processed

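Poly-A RNA of 25 mouse livers was sequenced by the submitters. Per the submitters' processing notes reads were aligned with STAR to GRCm39 and counted with featureCounts 2.0.6, while the file header names featureCounts 2.0.1 with the GENCODE M31 annotation and sets no option for strand or for reads that match several genes. The deposited values are raw counts per gene.

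From these counts, edgeR 4.0.16 in R 4.3.3 was run on the 18 libraries that share 1 batch date in the labels, in 6 groups (the 5 described and a group on normal chow), with filterByExpr, TMM scaling and the quasi-likelihood test, and p-values were adjusted by Benjamini-Hochberg over the 19571 genes kept. An adjusted p under 0.05 counts as passed or called. Adjusted p-values, SEs and 95% intervals are from this fit unless another fit is named, such as one without a library. The SE was computed as the size of the log2 fold change divided by the square root of the test's F value. The libraries held 31298299 to 56010646 counts. With 3 libraries a group, an exact permutation test of 1 gene cannot go below 0.1 and was not used. P-values set a difference against the spread between libraries within groups, estimated over all 18 libraries in 6 groups and not from the compared groups alone. Nothing in the sources used here says how cages were shared.

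Gene lists are compared by counts and medians, without a test of the list. For each count between the schedules, the shares over all tested genes are the same. At an unadjusted p under 0.05, 5.9% were higher and 6.27% lower in prevention. Without overlap, 8.24% were higher and 7.56% lower. The members and lists were chosen with earlier results of these data known. Named genes are, of the 38 called, up to 12 rises and 12 falls with a mean of at least 1 CPM, 24 key genes, up to 4 members with the smallest p of each list, and up to 6 genes in each direction for the dose comparison. The other called genes, those called in therapy against FAT-MASH, and Arntl, Dbp, Ly6g and Nr0b2 were named after their values were seen. Some genes that this rule names are not reported here. Alternatives were DESeq2 1.42.0, limma 3.58.1 with voom and sample weights, other scalings, no filter, other sets of libraries, a replicate block and leaving out each library. Same-numbered libraries of the 2 schedules did not deviate together (correlations 0.0119, -0.0246 and 0.0790), so the numbers were not taken to pair them. The fit was tested on simulated data.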

Additional observations from a re-analysis of the deposited data

Results flagged for a closer look

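The comparison of doses gave results that differ between groups by a test of the difference itself, edgeR's quasi-likelihood test of prevention minus therapy at 5% less prevention minus therapy at 20%. It called 424 genes. Among the genes named above, the log2 values with the higher side at 5% were 1.26 for Tuba1b, 2.30 for Tubb2b, 2.63 for Mybl1, 1.72 for Tubb2a, 1.05 for Dynll1, 7.28 for Gm3953, 2.23 for Slc22a27, 2.08 for Npas2, 1.88 for Ccnd1, 1.62 for Ccdc120, 1.06 for Slc10a2, 2.59 for Mki67 and 1.37 for Gdf15.

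On the lower side the log2 values were -2.46 for Acpp, -1.86 for Tdo2, -1.31 for Abca8a, -0.96 for Hrg, -1.20 for Slc27a5, -2.0 for Cyp2c50, -2.72 for Cyp7a1, -1.56 for G6pc, -1.37 for Cyp2d9, -1.69 for Tbx3os1, -1.55 for Mcm10, -1.22 for Hsd3b2, -0.82 for Slc29a1 and -0.88 for Slc2a9.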

How the results depend on the processing

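All 38 genes called between the schedules kept their direction in the 14 alternative fits, while 0 of them passed in every one. Against 38 calls, DESeq2 gave 357, no filter on low counts 862, limma with voom and sample weights 136, a fit restricted to both schedules 5, and leaving out 1 library 2 to 201. In the fit restricted to both schedules only 4 of the 38 kept their call. Ccnd1 (adjusted p = 0.0942), Npas2 (0.0903) and G6pc (0.134) were among those that lost it. A fit of all 25 libraries with a batch term also gave 38, of which 25 were among the original 38. The calls lost there were Kif14, Stk26, Arhgef2, Dynll1, Cyp7a1, Slc22a27, St3gal4, Dnajb9, Ccdc120, Mal2, Dido1, Gm3953 and Gm31583. Cdkn1a and Slc2a5, not called, passed with DESeq2 and limma. A replicate block gave 17, all among the 38, although the numbers do not pair the libraries. For the 8 called members of the gene lists these fits gave 46 (DESeq2), 205 (no filter), 27 (limma) and 3 (only the groups compared). Prevention against FAT-MASH (445) gave 943 with DESeq2, 1254 without a filter and 676 with limma, and therapy against FAT-MASH (7) gave 85, 339 and 4, and 1 with only the groups compared. The dose comparison (424) gave 1036, 1364 and 1043, 280 with only the groups compared and 722 with library totals. Leaving out 1 library gave 127 to 344 for prevention and 0 to 43 for therapy against FAT-MASH, and 72 to 583 for the dose comparison. The causes of these shifts were not tested. Genes near 1 CPM, such as Kif14 and Gm3953, rest on few reads, and intervals of 3 against 3 libraries leave changes of the size of the smaller calls undetected in variable genes.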
